A study of Homo sapiens with 28 samples.

Results

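The genes examined here are 10 core genes of TGF-beta signalling, namely the ligand TGFB1, the receptors TGFBR1 and TGFBR2, the signal-carrying SMAD2, SMAD3 and SMAD4, the inhibitory SMAD6 and SMAD7, and the repressors SKI and SKIL. They were taken from a fixed list of names, drawn up with earlier results of these data known, and were located with GENCODE. They are 10 of 20033 annotated protein-coding genes. A peak was assigned to a gene when its summit lay between 1000 bases upstream of the gene start and the gene end, with the strand of the gene (sense) and the opposite strand (antisense) kept apart. Overlapping peaks of all libraries were merged by strand into 86481 regions, of which 73 sense and 19 antisense regions held a summit assigned to these genes.

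N6-methyladenosine (m6A) was mapped by MeRIP-seq, antibody pulldown of RNA fragments and their sequencing, on caRNA, the chromatin-associated fraction of nuclear RNA. Each of 14 immunoprecipitated libraries came with 1 list of peaks, and the 14 matched input libraries are not analysed here. There were 2 WT libraries of HepG2, a hepatoma line, and 2 of K562, a chronic myelogenous leukaemia line. Control and RBFOX2 KD were each represented by 2 libraries in K562 and by 3 in NB4, an acute promyelocytic leukaemia line. WT cells were unmodified, whereas Control and KD cells of a line both carried a lentiviral short hairpin RNA under puromycin selection, non-targeting in Control and directed against RBFOX2 in KD, in stably transduced cells, and which hairpin each KD library carried is not given in the sources used here. The KD libraries address whether m6A on caRNA depends on RBFOX2, a protein that binds RNA. No source used here says that the replicates came from separate cultures, so p-values measure the spread between these libraries alone.

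TGF-beta is a secreted ligand that brings a type II receptor (TGFBR2) and a type I receptor (TGFBR1) together on the cell surface. The type I receptor phosphorylates SMAD2 and SMAD3, which join SMAD4 and enter the nucleus to act on target genes. SMAD6 and SMAD7 block the receptors and the receptor SMADs, and SKI and SKIL bind the SMAD complex and repress its targets. In blood cells the pathway is known for holding back proliferation and for steering differentiation.

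The sequences under the summits are given first, because the place and letters of a peak say which part of the RNA was enriched. For each gene the sense region listed in the most libraries, and among those the one with the highest mean percentile, is called the leading region. The lines show hg38 sequence on the strand of the gene from 5′ to 3′, 61 bases about the median summit in coding, intronic and upstream regions and 29 bases about the nearest motif in a UTR. Capitals mark DRACH, the usual m6A context, which is 5 bases long and holds A, G or T, then A or G, then A, then C, then A, C or T.
TGFB1 5′ UTR, exon 1, chr19:41353394-41353422, minus strand: AGACTtttccccAGACCtcgggcgcaccc
TGFB1 intron 6, chr19:41331837-41331897, minus strand: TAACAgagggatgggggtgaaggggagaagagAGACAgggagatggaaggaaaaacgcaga
TGFBR1 3′ UTR, exon 9, chr9:99149463-99149491, plus strand: tttGGACCcaggAAACAgccatgtgggtc
TGFBR2 coding exon 4, chr3:30671959-30672019, plus strand: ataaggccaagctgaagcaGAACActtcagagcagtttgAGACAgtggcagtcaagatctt
SMAD2 3′ UTR, exon 11, chr18:47841735-47841763, minus strand: tgtggtccctatGGACTgtttactatcca
SMAD3 3′ UTR, exon 9, chr15:67190793-67190821, plus strand: cttaagtgagcaGAACAggtagtattaca
SMAD4 coding exon 2, chr18:51047028-51047088, plus strand: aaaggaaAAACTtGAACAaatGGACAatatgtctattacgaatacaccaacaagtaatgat
SMAD6 coding exon 1, chr15:66703327-66703387, plus strand: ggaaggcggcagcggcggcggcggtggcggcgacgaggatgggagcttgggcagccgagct
SMAD7 coding exon 1, chr18:48950337-48950397, minus strand: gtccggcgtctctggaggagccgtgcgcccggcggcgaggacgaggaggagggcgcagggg
SMAD7 upstream, chr18:48951399-48951459, minus strand: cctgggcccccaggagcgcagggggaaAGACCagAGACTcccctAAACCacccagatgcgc
SKI coding exon 1, chr1:2229532-2229592, plus strand: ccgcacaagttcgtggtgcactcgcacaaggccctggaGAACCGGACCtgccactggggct
SKIL coding exon 2, chr3:170360358-170360418, plus strand: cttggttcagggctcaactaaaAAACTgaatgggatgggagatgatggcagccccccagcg

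The bases within 50 of the median summit held DRACH on the strand of the peak in 9 of the 10 leading regions and in 65 of the 73 sense regions. Of all 86481 regions 90.02% held it, so the members' share was close to that of any region. The exception was SMAD6, whose GC-rich window in exon 1 held none. The nearest motif lay between 3 bases (TGFB1) and 48 bases (SMAD7) from the summit, with a median of 9. GGACT, a commonly methylated form of the context, was present in 1 leading window, that of SMAD2, and in 17.2% of all windows. TGCATG, the DNA spelling of the canonical RBFOX2 motif, was in none of the 10 leading windows, in 1 of the 73 and in 2.36% of all. A match describes the letters only, and no match says only that the letters are not in this window.

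The lists held 22700 to 44088 peaks, and the read depth recovered from them was 10.8 M to 25.6 M effective reads in 11 libraries. NB4 Control 3 and both HepG2 libraries gave no depth. Of 8 marker genes fixed for each line, 6 had a peak in every K562 library for K562 and 6 in every NB4 library for NB4, whereas 3 of the 8 hepatocyte markers had one in both HepG2 libraries. ALB and AFP had no peak in HepG2, and ELANE none in NB4, which leaves the lines' labels unchecked at those genes. Markers were not all confined to their line. EPOR, a K562 marker, had a peak in all 6 NB4 and both HepG2 libraries, and CD33, an NB4 marker, in all 6 K562 libraries. Of the 8 K562 markers 6 had no peak in NB4, and of the 8 NB4 markers 5 had none in K562. RBFOX2 itself carried 0 to 3 sense peaks per library, which says nothing about its transcript level, and how far RBFOX2 was depleted was not measured here. A fold, the deposited ratio of the reads at the summit to the local background, can likewise move with the amount of RNA made from a gene, which was not tested. Median folds of whole lists were 3.84 and 4.03 in HepG2, 5.68 to 8.01 in K562 and 5.08 to 6.14 in NB4. Orders of lines by deposited fold are not corrected for this.

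The leading region of TGFB1 varied least in percentile among those of the 10 genes. The percentile of a region is the position of its strongest peak by −log10 q-value within its own list, where 100 is the top. TGFB1's leading region stood between the 89.8th and the 99th percentile in the 14 libraries (median 96.2, SD 2.47), and it was the highest or second highest of the leading regions in all 14. It can hold several peaks in a library, and the summit of its strongest peak was not at the same position in all libraries. Percentiles end at 100, so values this high have little room to vary, and its deposited folds ran from 8.66 to 33.3. By percentile SKI was the highest in 7 libraries, TGFB1 in 6 and SMAD7 in 1. Median percentiles of the other genes fell from 95.3 for SKI through 88.8 for TGFBR2 (11 libraries), 87.3 for SMAD4, 85.5 for SMAD3, 82.9 for SMAD7, 74.8 for SKIL, 58.2 for SMAD2 and 47.2 for SMAD6 (11 libraries) to 25.1 for TGFBR1 (9 libraries). The range of TGFB1 did not overlap that of TGFBR1, SMAD2, SMAD6 or SKIL, and it overlapped that of SKI, TGFBR2, SMAD3, SMAD4 and SMAD7. Neighbours in the order from SKI to SMAD7 had overlapping ranges and SDs of 6.41 to 36.9, so their order is not resolved.

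**Figure D1:**
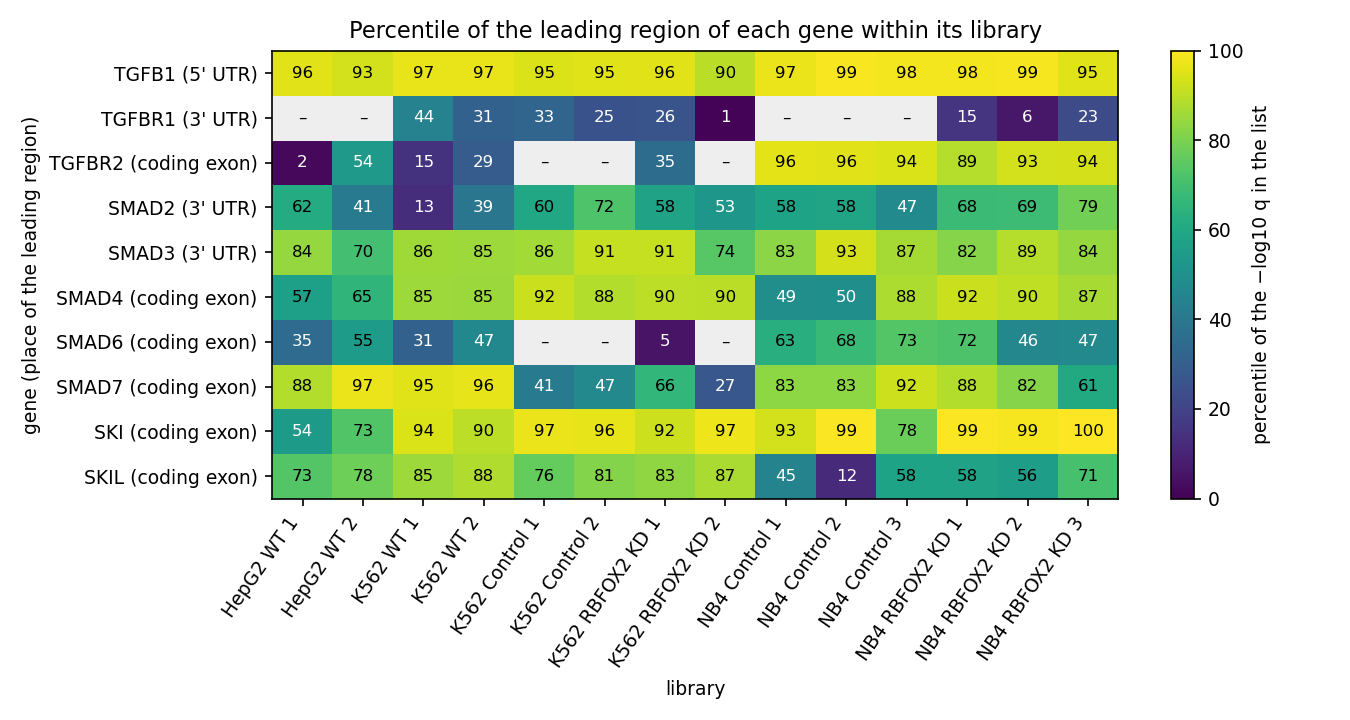
The rows are the 10 genes with the place of their leading region, the columns the 14 libraries, and colour and number give the percentile of the region by −log10 q-value within its library (grey with a dash: not listed). TGFB1 is high in every column, whereas TGFBR1, TGFBR2 and SMAD6 have columns without a peak.

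The ligand gene and SKI were also the most densely peaked per length. TGFB1 had 1.46 sense peaks per 10 kb of gene and library on average, SKI 1.23, SMAD7 0.912, SKIL 0.776 and SMAD3 0.572, and the other 5 genes 0.174 to 0.232. Counts per library ran from 5 to 12 for TGFB1, from 6 to 16 for SKI and from 5 to 12 for SMAD3. SMAD4 had exactly 1 sense peak in each of the 14 libraries. TGFBR1 had a sense peak in 10 libraries, TGFBR2 in 11 and SMAD6 in 12, and the other 7 genes in all 14. Among all protein-coding genes 63.0% had a sense peak in at least 1 library and 25.4% in all 14.

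NB4 libraries listed more sense peaks at these genes than the other lines. The sum over the 10 genes was 33 and 33 in HepG2 WT, 36 and 35 in K562 WT, 28 and 30 in K562 Control, and 34 and 27 in K562 KD. It was 47, 44 and 48 in NB4 Control and 61, 56 and 49 in NB4 KD. All 6 NB4 libraries stood above all 8 others, and NB4 KD stood above NB4 Control. As a share of the list the sum was 0.133% to 0.159% in NB4, 0.120% and 0.145% in HepG2 and 0.0758% to 0.0880% in K562, so NB4 and HepG2 overlapped on that scale and K562 was below both. Lists of NB4 KD were longer (36777 to 39803 peaks) than those of NB4 Control (29609 to 33497), and within NB4 the share did not separate KD (0.133% to 0.153%) from Control (0.138% to 0.159%).

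**Figure D2:**
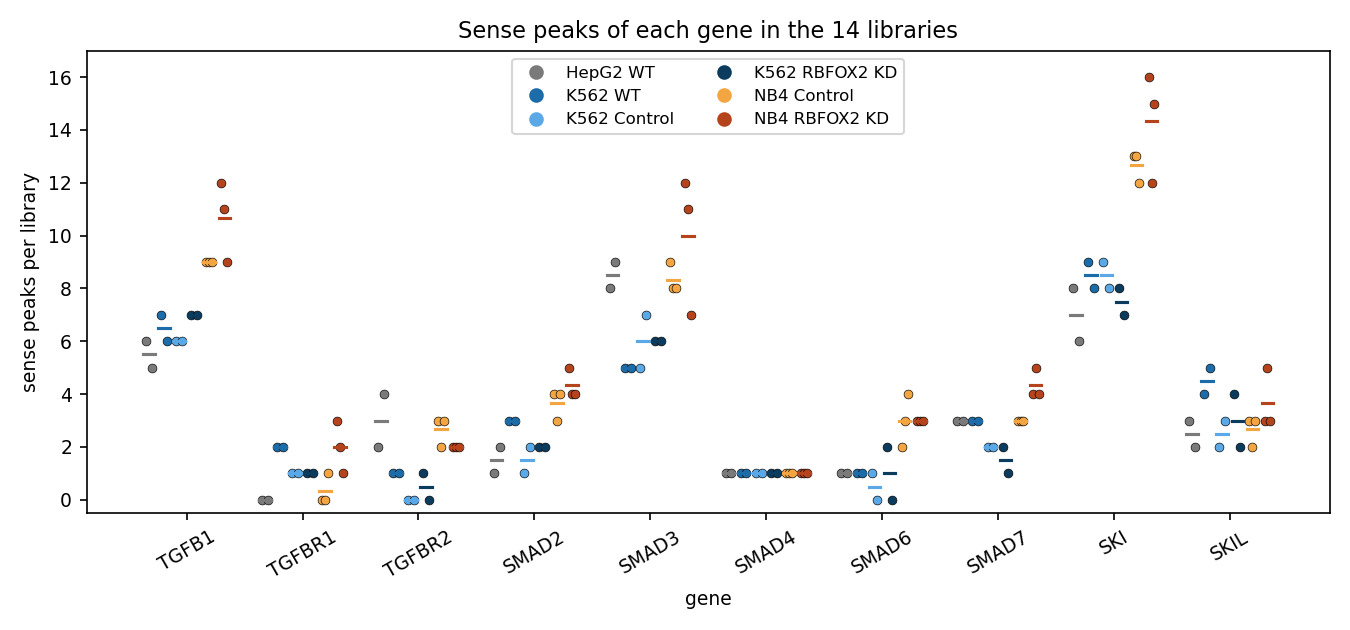
Each point is the number of sense peaks of a gene (x axis) in 1 library (y axis), coloured by group, and short bars are group means. TGFB1 and SKI have more peaks in the 6 NB4 libraries than in the others, and SMAD4 stays at 1.

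Over all libraries 561 sense peaks were assigned to the 10 genes. Of these 205 had the summit in an intron (36.5%), 139 in coding sequence (24.8%), 109 in a 3′ UTR (19.4%), 36 in a 5′ UTR (6.42%), 30 upstream of the canonical start (5.35%) and 42 beyond the canonical end (7.49%). All 42 of the last kind belonged to TGFB1, whose annotated gene reaches 52.3 kb although its canonical transcript ends far earlier. The 9 upstream peaks of TGFB1 formed a region over B9D2, an annotated gene of the same strand, and may belong to that gene's RNA. Introns held 65.3% of the peaks of SKI, and coding exons 79.5% of those of SKIL and 100% of those of SMAD4. The 3′ UTR held 49.1% of the peaks of SMAD3, 45.0% of those of SMAD2 and 66.7% of those of TGFBR1.

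Regions listed in all 14 libraries numbered 14 of the 73 sense and 2 of the 19 antisense regions, and 8.91% of all regions were of this kind. They belonged to SKI (4), SMAD3 (3), TGFB1 (2), SKIL (2), SMAD2, SMAD4 and SMAD7 (1 each), and none to a receptor or to SMAD6. Both antisense regions were at TGFB1. All 6 NB4 libraries and no other listed 2 sense regions (3.4% of all regions), the 5′ UTR of SMAD6 (chr15:66702196-66702727) and an intron 1 region of SKI (chr1:2297715-2298350). Both HepG2 libraries and no other listed 3 sense regions, in TGFB1 intron 6, TGFBR2 intron 4 and upstream of the canonical SMAD3 transcript, and 1 antisense region at SKI (4.63% of all regions). None was listed by all 6 K562 libraries and no other (6.32% of all regions), and none by all 12 K562 and NB4 libraries without HepG2 (2.13%).

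The ligand gene TGFB1 (ENSG00000105329.11, chr19:41301587-41353922, minus strand) encodes transforming growth factor beta 1. Its leading region (chr19:41351805-41353913) spans exon 1 and the start of intron 1 and holds up to 4 peaks in a library, so its peaks were also read apart by their summit. The strongest peak in the 5′ UTR had folds of 8.66 and 10.2 in HepG2 WT, 22.7 and 21.8 in K562 WT, 31.9 and 27.6 in K562 Control, and 33.3 and 27.5 in K562 KD. It had folds of 13.1, 13.6 and 11.2 in NB4 Control and 10.9, 12.4 and 10.3 in NB4 KD. K562 libraries were the highest and HepG2 libraries the lowest, and Control and KD overlapped in both lines. The reads at this summit numbered 221 to 375 in the 11 libraries where they could be recovered. The summit of the 5′ UTR peak fell 511 bases from the start site in 6 libraries of K562 and NB4 and 522 to 529 bases in both HepG2 libraries and K562 Control 2. In K562 WT 1, K562 WT 2, K562 KD 2, NB4 KD 1 and NB4 KD 3 it fell 174 to 185 bases from the start site, still in the 5′ UTR.

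The same region held a second peak at the start of intron 1, about 1.75 kb from the start site, that was prominent in NB4. Its fold was 11.6, 8.36 and 10.3 in NB4 Control and 18, 17.2 and 12.5 in NB4 KD, so by fold the KD libraries stood above the Control libraries. In HepG2 WT it was 5.82 and 6.42, in K562 KD it was 4.78 and 3.77, and in K562 WT and Control no separate peak had its summit there. In NB4 the KD minus Control difference in log2 fold was 0.64 (SE 0.24, 95% interval 0.10 to 1.19, limma, adjusted p = 0.295), so it did not pass the threshold over all regions. The split into these peaks was chosen after seeing the data. For the 5′ UTR peak the difference was −0.18 in NB4 (SE 0.21, 95% interval −0.65 to 0.29, adjusted p = 0.732) and −0.08 in K562 (SE 0.26, 95% interval −0.67 to 0.50, adjusted p = 1.00).

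Farther down, TGFB1 had a region in intron 6 (chr19:41331658-41332232) listed in all 14 libraries. Its fold was 7.94 and 8.79 in HepG2 WT, 17.3 and 16.1 in K562 WT, 4.71 and 5.79 in K562 Control, and 4.30 and 4.44 in K562 KD. In NB4 it was 13.4, 13.7 and 12.1 in Control and 14.7, 12.6 and 15 in KD. The K562 libraries with a hairpin, Control and KD alike, were the lowest and K562 WT the highest, which is a difference within the same line that no comparison here tests. Beyond the canonical end, a region at chr19:41310662-41310990 had folds of 16.5, 21.1, 17.3 and 15.1 in the 4 K562 hairpin libraries, 4.2 in K562 WT 1 and 5.81 in NB4 Control 1, and was not listed elsewhere. Its neighbours at chr19:41322899-41323519 and chr19:41325360-41325920 were the reverse, listed in all 6 NB4 and both K562 WT libraries (the first also in both HepG2 libraries) and in none of the 4 K562 hairpin libraries.

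The strand opposite TGFB1 carried 106 antisense peaks over the 14 libraries, 4 to 12 in each, against 5 for SKI, 3 for SMAD3 and none for the other 7 genes. These peaks lay over annotated genes of that strand, TMEM91 and a transcript that overlaps it near the TGFB1 start, and CCDC97 and HNRNPUL1 beyond its end, so they may belong to those genes' RNA as much as to RNA antisense to TGFB1 and the assignment cannot be told apart. A region opposite intron 1 (chr19:41350830-41351223) had folds of 20.9 and 19.4 in K562 WT, 28.7 and 21.7 in K562 Control and 35.4 and 45.4 in K562 KD. In NB4 it was 8, 5.24 and 4.36 in Control and 6.41 and 4.01 in KD 1 and 2, and it was not listed in NB4 KD 3 or HepG2. K562 libraries thus stood above all NB4 libraries, and K562 KD above K562 Control, by 0.57 in log2 fold (SE 0.28, 95% interval −0.05 to 1.20, limma, adjusted p = 1.00). A region opposite the 5′ UTR (chr19:41352844-41353898) was listed in all 14, with folds of 3.64 to 3.67 in HepG2, 7.37 to 11.4 in K562 and 5.91 to 11.3 in NB4.

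The other antisense regions listed in at least 7 libraries lay beyond the canonical end. One at chr19:41316307-41317058, over CCDC97, was listed in all 14 with folds of 5.96 to 13.1. Those at chr19:41305544-41305814 (8 libraries), chr19:41317917-41318118 (7), chr19:41319441-41319834 (8), chr19:41320293-41321166 (9) and chr19:41322491-41322838 (10) had folds of 2.46 to 11.7. The last of these was listed in all 6 groups and each of the others was absent from at least 1 group.

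**Figure D3:**
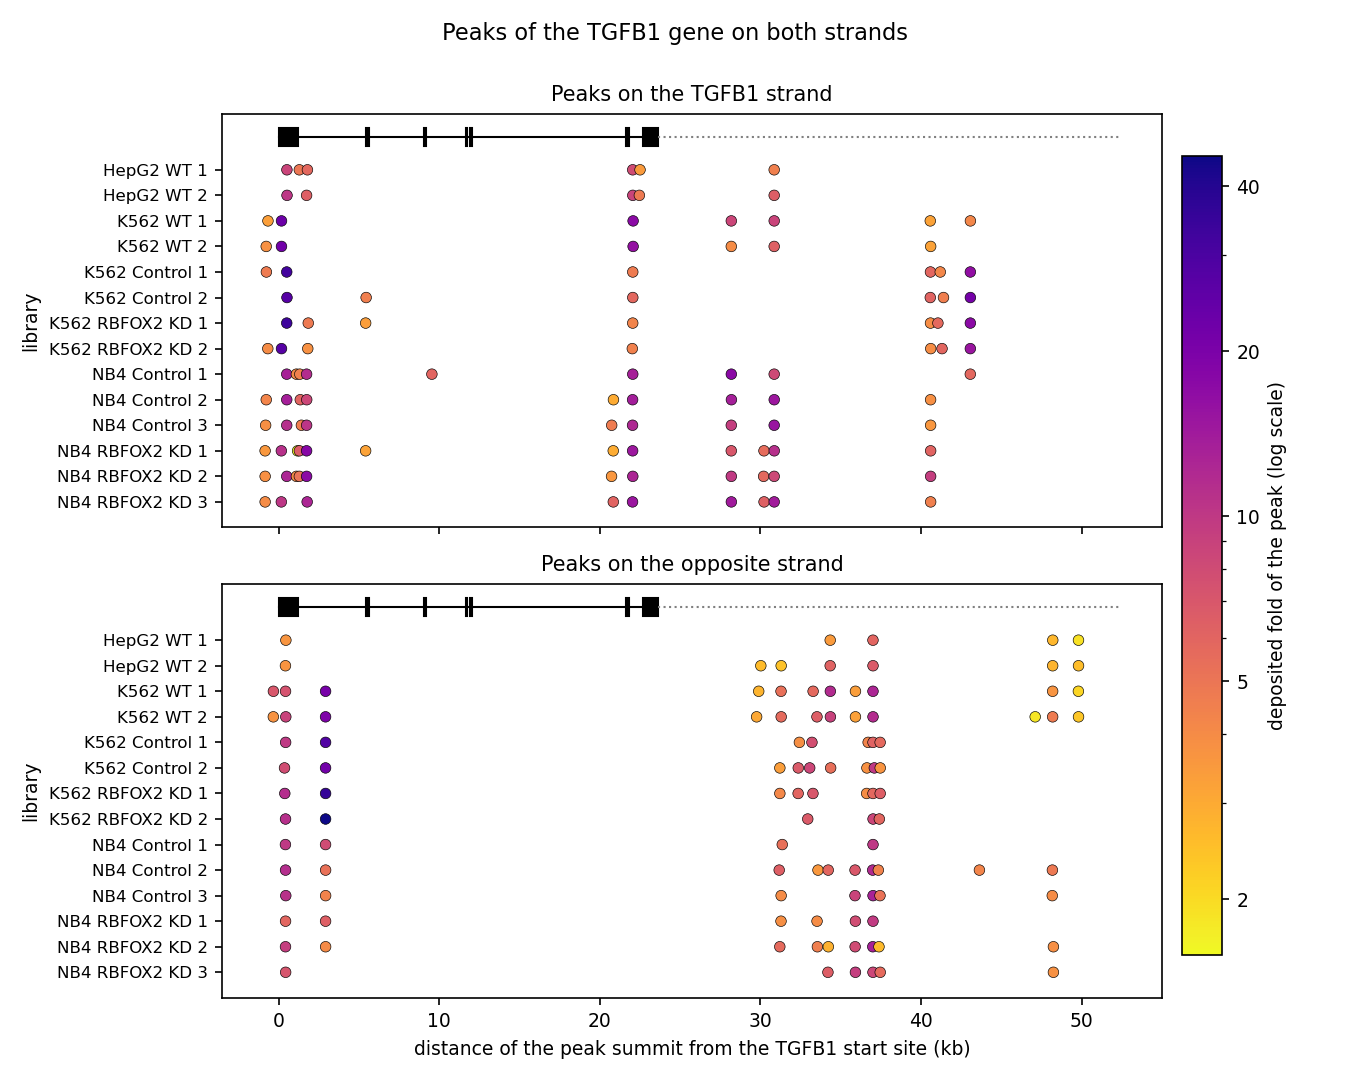
Each point is a peak summit of 1 library (row) at its distance in kb from the TGFB1 start site (x axis), on the strand of TGFB1 (top) and on the opposite strand (bottom), and colour is the deposited fold on a log scale. Black boxes and the solid line are the exons and introns of the canonical transcript and the dotted line the rest of the annotated gene. The 5′ UTR and intron 6 columns are filled in all 14 libraries, and the antisense column opposite intron 1 is darkest in K562.

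The receptors were the least regularly listed. The leading region of TGFBR1, the type I receptor kinase (chr9:99104038-99154192, plus strand), lay in the 3′ UTR 195 bases after the stop codon (chr9:99149280-99149640). Its fold was 5.74 and 4.74 in K562 WT, 6.04 and 4.81 in K562 Control, 5.33 and 3.19 in K562 KD, and 3.96, 3.16 and 4.59 in NB4 KD. It was listed in no HepG2 and no NB4 Control library, and its percentile never exceeded 44.2.

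TGFBR2, the type II receptor that binds the ligand (chr3:30606601-30694142, plus strand), had its leading region in coding exon 4 (chr3:30671752-30672406). The fold was 16.1, 13.2 and 9.32 in NB4 Control and 7.72, 9.76 and 11.3 in NB4 KD, at the 88.8th to 95.8th percentile. It was 1.36 and 1.91 in HepG2 WT, 3.81 and 4.61 in K562 WT and 6.17 in K562 KD 1, and the region was absent from K562 Control 1, K562 Control 2 and K562 KD 2. NB4 libraries were thus above all others, and Control and KD overlapped within NB4. A region in intron 5 (chr3:30681064-30681340) was listed in HepG2 WT 2 with a fold of 1.55 and in every NB4 library. Its fold was 3.52, 3.87 and 8.1 for Control and 8.6, 10.2 and 8.71 for KD. There the KD libraries stood above the Control libraries, with a difference of 0.92 in log2 fold (SE 0.33, 95% interval 0.17 to 1.67, limma, adjusted p = 0.285), which did not pass the threshold.

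SMAD2 (chr18:47808957-47931146, minus strand) and SMAD3 (chr15:67063763-67195173, plus strand), the SMADs that the receptor phosphorylates, both had their leading region in the 3′ UTR. In SMAD2 (chr18:47841535-47842017, 82 bases after the stop codon) the fold was 4.92 and 4.23 in HepG2 WT, 3.74 and 5.43 in K562 WT, 9.73 and 11.7 in K562 Control, and 9.66 and 9.28 in K562 KD. It was 8.79, 8.03 and 6.56 in NB4 Control and 8.02, 8.58 and 10.8 in NB4 KD. WT libraries of both lines had lower deposited folds than all hairpin libraries. KD was below Control in K562 (difference −0.28, 95% interval −0.90 to 0.33), and Control and KD overlapped in NB4. A second region in coding exon 2 (chr18:47896625-47896859, 31 bases after the start codon) was listed in 12 libraries with folds of 2.11 to 5.63.

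In SMAD3 (chr15:67190422-67191363, in the last exon) the fold of the leading region was 5.92 and 4.51 in HepG2 WT, 14 and 13.9 in K562 WT, 21.5 and 21.9 in K562 Control, and 26.1 and 15 in K562 KD. It was 7.85, 15 and 10.6 in NB4 Control and 6.56, 11.4 and 9.16 in NB4 KD. Control and KD overlapped in both lines. A region over the SMAD3 start (chr15:67065290-67066492) had folds of 7.14 and 11.5 in HepG2 WT, 5.32 and 6.48 in K562 WT, 3.68 and 4.35 in K562 Control, 5.05 and 5.11 in K562 KD, 15.4, 11 and 14.1 in NB4 Control and 11, 12.6 and 10.9 in NB4 KD. NB4 was high and K562 low, and the strongest summit was not the same: it lay at positions 67065663 to 67065683 in NB4, at 67065546 and 67065547 in HepG2, and at 67066144 to 67066413 in 5 of the K562 libraries, with K562 KD 1 at 67065660.

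SMAD4, the partner that receptor SMADs share (chr18:51028528-51085045, plus strand), had 1 region, at the start of its coding sequence in exon 2 (chr18:51046928-51047269, summit 11 bases after the start codon). The fold was 3.56 and 4.77 in HepG2 WT, 13.9 and 13.8 in K562 WT, 27.9 and 19.5 in K562 Control, and 24.8 and 26.6 in K562 KD. It was 6.89, 6.30 and 13.3 in NB4 Control and 13.2, 14.2 and 12.6 in NB4 KD. HepG2 was the lowest by deposited fold and K562 hairpin libraries the highest. NB4 Control 3 stood with the NB4 KD libraries and apart from NB4 Control 1 and 2.

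SMAD6, an inhibitory SMAD (chr15:66702236-66782849, plus strand), had its leading region in coding exon 1 (chr15:66703095-66703955), with folds of 3.73 and 4.88 in HepG2 WT, 4.74 and 5.95 in K562 WT and 3.74 in K562 KD 1. In NB4 it was 9.36, 9.19 and 9.57 in Control and 8.43, 6.02 and 6.16 in KD. NB4 KD libraries were below NB4 Control libraries, by 0.47 in log2 fold (estimate −0.47, SE 0.23, 95% interval −0.98 to 0.03, limma, adjusted p = 0.382), which did not pass the threshold.

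SMAD7, the inhibitory SMAD that TGF-beta itself induces (chr18:48919853-48950965, minus strand), had its leading region in coding exon 1 (chr18:48949873-48950630). Its fold was 5.45 and 11.6 in HepG2 WT, 20.8 and 22.1 in K562 WT, 7.17 and 6.89 in K562 Control, and 11.8 and 5.94 in K562 KD. It was 14.5, 13 and 16 in NB4 Control and 12.7, 11.3 and 7.61 in NB4 KD. NB4 KD libraries were below NB4 Control libraries, and K562 Control lay within the range of K562 KD.

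SMAD7 also had sense RNA with a peak before its annotated start (chr18:48951034-48951973), listed in 13 libraries. The fold was 4.87 and 6.75 in HepG2 WT, 8.07 and 8.94 in K562 WT, 4.28 and 5.81 in K562 Control and 5.27 in K562 KD 1. It was 13.2, 13.5 and 12.4 in NB4 Control and 7.95, 8.23 and 7.04 in NB4 KD, so all 3 KD libraries were below all 3 Control libraries. The difference was −0.76 in log2 fold (SE 0.21, 95% interval −1.22 to −0.30), the member region with the smallest p in NB4, and did not pass the threshold (limma, adjusted p = 0.210).

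SKI and SKIL encode related repressors that bind SMADs. SKI (chr1:2227388-2310213, plus strand) had its leading region in coding exon 1 (chr1:2228751-2229944), with folds of 3.33 and 2.66 in HepG2 WT, 10.9 and 8.06 in K562 WT, 24.0 and 28.8 in K562 Control, and 14.2 and 41.0 in K562 KD. In NB4 it was 4.54, 10.1 and 3.57 in Control and 10.8, 9.79 and 15.6 in KD. K562 hairpin libraries were the highest by deposited fold, and NB4 Control libraries were spread widely. In NB4 the KD minus Control difference of 1.10 (SE 0.37, 95% interval 0.28 to 1.92, limma, adjusted p = 0.263) did not pass the threshold. The 3′ UTR of SKI (chr1:2306469-2308508) and intron 1 (chr1:2240153-2240813 and chr1:2280419-2283422) were also listed in all 14 libraries, with folds of 3.72 to 21.3, 3.27 to 12.4 and 3.69 to 9.32.

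SKIL (chr3:170357342-170396835, plus strand) had its leading region in coding exon 2 (chr3:170359597-170361401), with folds of 5.60 and 6.93 in HepG2 WT, 13.9 and 15.2 in K562 WT, 15.6 and 14.9 in K562 Control, and 19.2 and 23.8 in K562 KD. In NB4 it was 7.05, 4.28 and 7.36 in Control and 6.63, 6.85 and 8.91 in KD. K562 KD libraries stood above K562 Control libraries by 0.38 in log2 fold (SE 0.27, 95% interval −0.23 to 0.98, limma, adjusted p = 1.00), which did not pass the threshold. A region in intron 6 (chr3:170392123-170392543) was listed in all 14 libraries with folds of 4.78 to 13.5.

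RBFOX2 KD was compared with Control in each line on the regions listed in every library of the comparison, after centring the log2 folds of each library on their median. In K562 limma called 0 of 24783 regions at an adjusted p under 0.05 (0%), with 974 at an unadjusted p under 0.05 (3.93%). The members had 24 of these regions, of which 0 were called and 1 had an unadjusted p under 0.05, a TGFB1 region beyond the canonical end (chr19:41313077-41313619, difference −0.72, SE 0.26, adjusted p = 1.00). In NB4 limma called 0 of 17040 regions (0%), with 2419 at an unadjusted p under 0.05 (14.2%). Of the 28 member regions 0 were called and 4 had an unadjusted p under 0.05, the SMAD7 upstream and TGFBR2 intron 5 regions and SKI exon 1 described before, and the antisense region opposite the TGFB1 5′ UTR (difference −0.55, SE 0.24, adjusted p = 0.336). The median difference of the member regions was −0.18 in K562 and −0.13 in NB4, against 0.00 over all regions in both. Sense regions alone had medians of −0.20 in K562 and −0.12 in NB4. With summits clustered within 100 bases these were −0.28 and 0.10, so the NB4 sign depended on the setting. The medians were not tested. Before centring the median of all regions was 0.11 higher in K562 KD and 0.01 higher in NB4 KD, and no region was called on that scale.

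Over both lines together limma called 0 of 10535 regions (0%, 871 at an unadjusted p under 0.05), and 0 of 16 member regions, none of them at an unadjusted p under 0.05. The mean effect at the TGFB1 5′ UTR peak was −0.14 in log2 fold (SE 0.16, 95% interval −0.48 to 0.20, adjusted p = 0.859), and at the TGFB1 intron 6 region −0.14 (SE 0.16, 95% interval −0.48 to 0.20, adjusted p = 0.859). The difference of the effects between the lines was called in 0 of the 10535 regions (0%, 814 at an unadjusted p under 0.05) and in 0 of 16 member regions. The antisense region opposite the TGFB1 5′ UTR had the only unadjusted p under 0.05 among them, with a K562 minus NB4 difference of 0.81 (SE 0.35, adjusted p = 0.619).

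**Figure D4:**
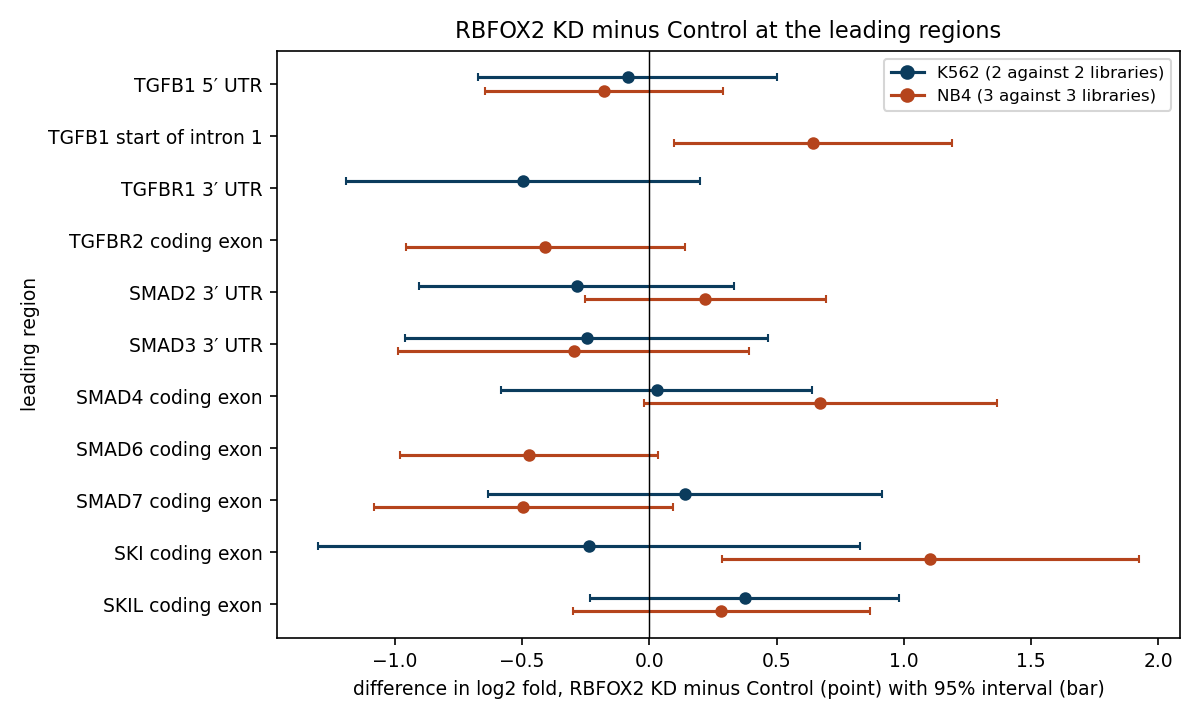
Points are the RBFOX2 KD minus Control differences in centred log2 fold (x axis) at the leading regions and the TGFB1 intron 1 peak (y axis), in K562 and NB4, and bars are 95% intervals. Most intervals cross 0, and those of SKI exon 1 and the TGFB1 intron 1 peak in NB4 do not, although their adjusted p-values of 0.263 and 0.295 miss the threshold.

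A region was counted as lost when every Control library of a line listed it and no KD library did, and as gained in the reverse case. In K562 1 of 42 member regions listed in that line was lost, in SKI intron 1 (chr1:2241100-2241291, folds of 5.77 and 5.53 in Control), and 1.71% of all 46100 regions were. None was gained, against 1.73% of all. In NB4 none of 73 member regions was lost, against 0.619% of all 48157 regions. There 2 were gained, against 3.52% of all, the TGFBR1 3′ UTR described before and a TGFB1 region beyond the canonical end (chr19:41323669-41323830, folds of 5.53, 5.72 and 6.28 in KD). The longer KD lists of NB4 move with the excess of gained over lost regions there. With every list shortened to its 22700 strongest peaks, 611 regions were gained and 523 lost in NB4 over all genes, and the same number of member regions, 2, was gained. Without K562 KD 1 the lost member regions of K562 rose to 6, as those of all genes rose from 790 to 2752. Without K562 Control 1 they rose to 4, against 6160 over all genes. Without K562 KD 2 the gained member regions rose to 3, as those of all genes rose from 799 to 2778. In NB4 the gained member regions rose to 4 without NB4 Control 2 or without NB4 KD 2, as those of all genes rose from 1696 to 2275 and 2550.

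The WT libraries describe how the lines differ without a hairpin. Between K562 WT and HepG2 WT limma called 4196 of 12860 regions (32.6%), 1803 higher in K562 (14%) and 2393 lower (18.6%). Of 26 member regions 8 were called (30.8%), a share near that of all regions, with 1 higher and 7 lower. SMAD4 exon 2 was higher in K562 by 0.70 (SE 0.16, adjusted p = 0.0229). The SMAD3 start was lower by 1.67 (estimate −1.67, SE 0.22, adjusted p = 0.00703), SMAD7 exon 4 (chr18:48921368-48921872) by 1.36 (estimate −1.36, SE 0.15, adjusted p = 0.00594) and the SMAD2 3′ UTR by 1.06 (estimate −1.06, SE 0.25, adjusted p = 0.0255). At the SMAD3 start the strongest summits of K562 WT and HepG2 WT lay at different positions, so different peaks of that region were compared. The other 4 lower regions were SMAD6 exon 1 (−0.73), an antisense region at the far end of TGFB1 (chr19:41303974-41304178, −1.04) and the SKI intron 1 regions at chr1:2280419-2283422 (−0.89) and chr1:2302849-2303040 (−0.61), with adjusted p-values of 0.00995 to 0.0311. The TGFB1 5′ UTR and intron 6 differed by 0.19 (95% interval −0.17 to 0.55) and −0.05 (95% interval −0.41 to 0.32) and were not called.

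These directions are relative to the median of all regions, which was 1.05 higher in K562 WT on the uncentred log2 scale. Without centring 9888 regions were called, 9694 higher in K562 and 194 lower, and 17 member regions were called, all higher. On that scale the estimates for SMAD3 start, SMAD7 exon 4 and SMAD2 3′ UTR were −0.63, −0.31 and −0.02. They kept their sign but none was called. The SMAD6, antisense TGFB1 and both SKI intron 1 differences changed sign to 0.32, 0.01, 0.16 and 0.43. Leaving out K562 WT 1 left 1 member region called and leaving out K562 WT 2 left 2, and the calls over all regions fell to 887 and 810.

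Between NB4 Control and K562 Control limma called 2809 of 11508 regions (24.4%), 1520 higher in NB4 (13.2%) and 1289 lower (11.2%). This comparison shares its Control libraries with the KD comparisons. Of 19 member regions 8 were called (42.1%), 6 higher in NB4 and 2 lower. Among the 16 sense regions 4 were higher and 1 lower, and the other calls were antisense regions at TGFB1 that may belong to other genes' RNA. The SMAD3 start was higher by 2.5 (SE 0.28, adjusted p = 0.00107), SMAD7 upstream by 2.14 (SE 0.28, adjusted p = 0.00149), TGFB1 intron 6 by 2.08 (SE 0.27, adjusted p = 0.00147) and SMAD7 exon 1 by 1.8 (SE 0.26, adjusted p = 0.00214). At the SMAD3 start the strongest summits of NB4 Control and K562 Control lay at different positions, so different peaks of that region were compared. The antisense TGFB1 regions over CCDC97 (chr19:41316307-41317058, 1.33, SE 0.32) and opposite the 5′ UTR (1.03, SE 0.26) were also higher, with adjusted p-values of 0.0149 and 0.0168. SKI exon 1 was lower in NB4 (−1.50, SE 0.41, adjusted p = 0.0224), as was the antisense region opposite TGFB1 intron 1 (−1.37, SE 0.29, adjusted p = 0.00888).

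The TGFB1 5′ UTR was not called between these lines (−0.47, SE 0.25, 95% interval −1.03 to 0.09, adjusted p = 0.195), and neither was SMAD4 (−0.72, 95% interval −1.52 to 0.08) or the SKIL exon 2 region (−0.57, 95% interval −1.25 to 0.11). The median of all regions was 0.78 lower in NB4 on the uncentred scale (−0.78), where 375 regions were called higher and 5582 lower and the member regions split into 4 higher and 7 lower. The SMAD3 start, TGFB1 intron 6 and both SMAD7 regions kept their direction and stayed under the threshold in all 9 or 10 alternatives that gave a value. Every alternative used K562 Control and none used K562 WT. Deposited folds of K562 WT were above those of NB4 Control at TGFB1 intron 6 (17.3 and 16.1) and SMAD7 exon 1 (20.8 and 22.1). At the SMAD3 start and SMAD7 upstream K562 WT was below NB4 Control. SKI exon 1 lost its call in 5 of 10, among them each fit without K562 Control 1, K562 Control 2, NB4 Control 1 or NB4 Control 3. Without K562 Control 1, which is the shallower of that pair, 4 of 21 member regions were called, all higher in NB4, and the calls over all regions fell to 984 of 12275, 650 higher and 334 lower.

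**Figure D5:**
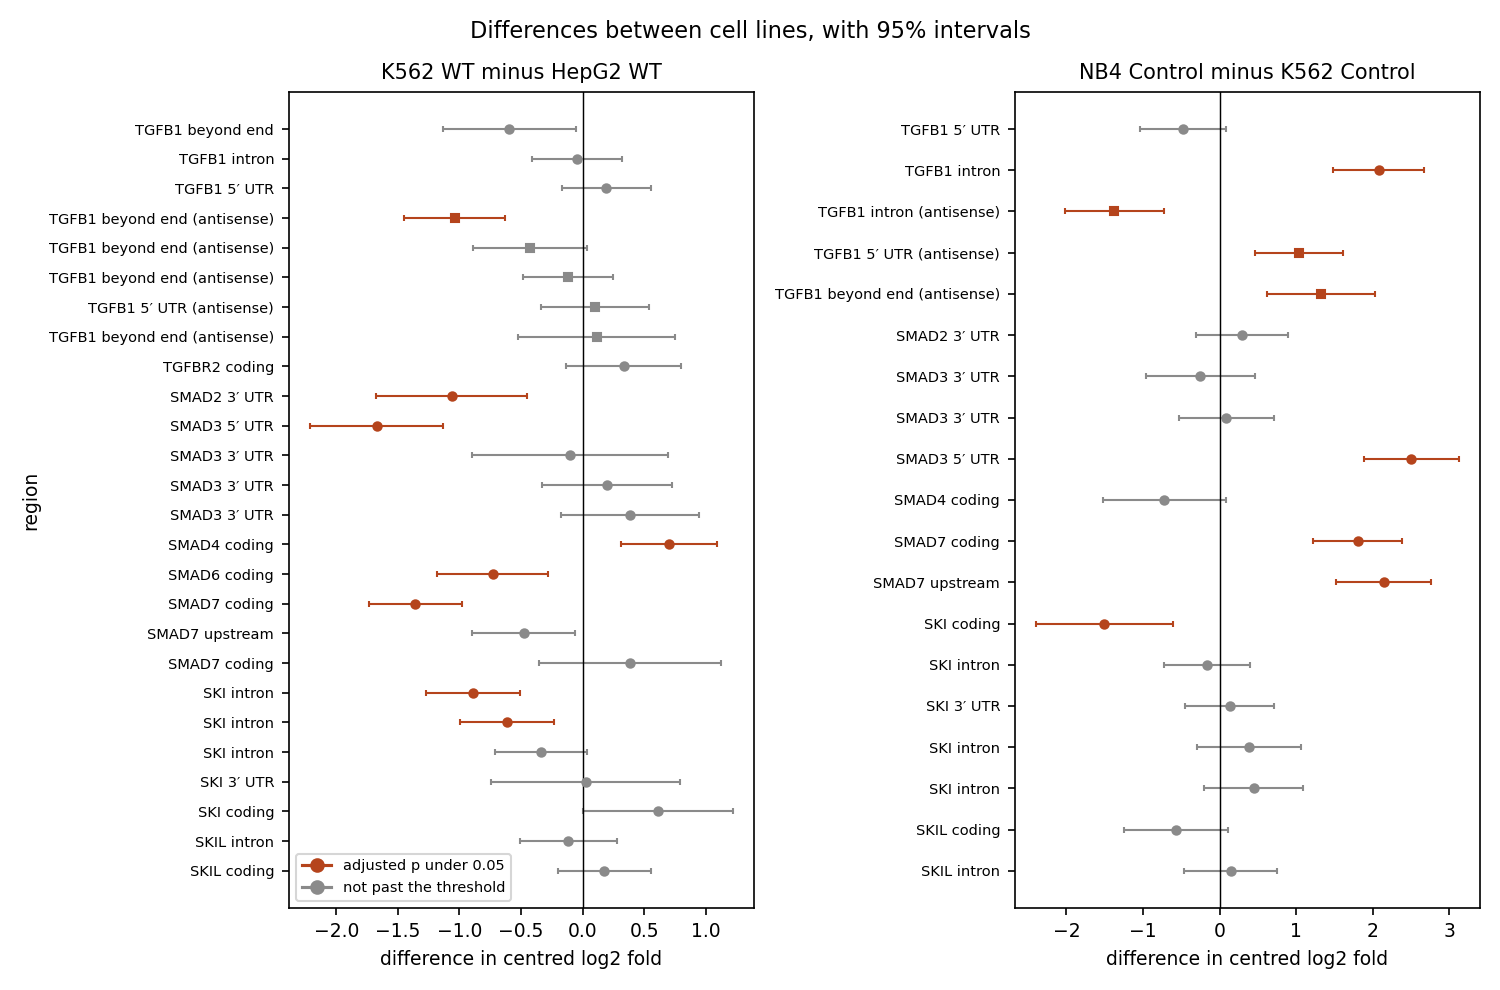
Differences in centred log2 fold with 95% intervals (x axis) for every member region tested (y axis, squares for antisense), K562 WT minus HepG2 WT on the left and NB4 Control minus K562 Control on the right. The SMAD3 5′ UTR region stands lowest on the left, at −1.67, and highest on the right, at 2.5, although its strongest summit differs between the lines.

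Of 49 other genes of the pathway, 42 had a sense peak in at least 1 library and 23 in all 14. The 7 without any peak were TGFB2, LTBP2, LRRC32, ENG, ACVRL1, PMEPA1 and ID3. Ubiquitin ligases and deubiquitinases (6 of 8), co-regulators (6 of 8) and kinases (3 of 3) were listed in all 14 libraries more often by count than ligands and their activators (1 of 9), receptors and co-receptors (3 of 8), other SMADs and adaptors (2 of 5) and transcriptional targets (2 of 8). The genes listed in all 14 were FURIN, ACVR1B, BMPR1A, BMPR2, SMAD5, ZFYVE9, SMURF1, NEDD4L, USP15, USP9X, RNF111, TRIM33, TGIF1, TGIF2, EP300, CREBBP, NCOR1, SIN3A, MAP3K7, TAB1, TAB2, KLF10 and JUNB.

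In the KD comparisons limma called 0 of 65 regions of these genes in K562 (4 at an unadjusted p under 0.05), 0 of 45 in NB4 (5), 0 of 37 over both lines (6) and 0 of 37 for the difference between the lines (4). Between K562 WT and HepG2 WT 13 of 49 regions were higher in K562 and 6 lower (38.8% called), relative to the same median of all regions. The largest were SMAD5, a BMP-responsive SMAD, at 1.55 (SE 0.18, adjusted p = 0.00613) and LTBP3, which binds latent TGF-beta, at −1.23 (SE 0.24, adjusted p = 0.0156). The other higher regions lay in EP300 (1.00 and 1.03), NEDD4L (1.00), KLF10 (0.95 and 0.52), TGIF2 (0.93), ACVR1 (0.89), NCOR1 (0.89 and 0.67), CREBBP (0.83), USP9X (0.70) and MAP3K7 (0.68). The other lower ones lay in NEDD4L (−1.05), BMPR2 (−0.97 and −0.73), TGFB3 (−0.74) and SMURF2 (−0.63). Between NB4 Control and K562 Control 4 of 38 were higher in NB4 and 3 lower (18.4% called), with KLF10, a TGF-beta-induced transcription factor, at 1.92 (SE 0.27, adjusted p = 0.00195) and CREBBP, a SMAD co-activator, at −1.37 (SE 0.30, adjusted p = 0.00946). CDKN1A, a cell cycle inhibitor and TGF-beta target, was higher in NB4 by 1.28 (SE 0.28, adjusted p = 0.00928). RNF111 was higher by 1.12 and CREBBP had a further lower region (−1.14), whereas EP300 had both a higher (1.63) and a lower region (−1.05).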

How the data were processed

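MeRIP-seq of caRNA had been run on 28 libraries, of which the 14 immunoprecipitated ones are used here and the 14 inputs are not analysed. The authors trimmed reads with Trimmomatic 0.39, aligned them to hg38 with HISAT2 2.1.0, handled alignments with SAMtools 1.9 and called peaks by strand with MACS2, 1 list per library. Each deposited list gives, for every peak, a fold ratio of summit reads over local background, a −log10 p-value and −log10 q-value and an integer score derived from the q-value. Whether an input served as background is not given in the sources used here. The lists hold no gene counts, so no count model was applied.

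Genes were located with GENCODE 44 (the authors used release 29), and the sequence was read from hg38. Peaks overlapping on a strand were merged into regions. A library's value for a region was the log2 of its highest deposited fold, centred on the library median over the regions tested, and its percentile was the rank of its −log10 q-value in the list. Fold and percentile can come from different peaks of a region. Regions listed in every library of a comparison were tested with limma 3.58.1 in R 4.3.3, with Benjamini-Hochberg adjustment over all of them and a threshold of 0.05. A low region is tested only where all libraries list it, so a peak that disappears is seen only in the presence counts. Library numbers and groups came from the labels.

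Summit reads (pileups) and local background were recovered from the fold and p-value of each peak, and in 11 libraries the pileups were whole numbers within 0.05. Read depth of those libraries was the lowest local background of each strand, summed and scaled by the genome size and the read extension. At most 0.442% of peaks were identical between any pair of lists. By rule the text names the leading sense region of each member, every member region that passes a test or is lost or gained, and antisense regions listed in at least 7 libraries. Other pathway genes are given by counts, with values only for those that pass a test or are listed in all 14 libraries (the latter are named without values here). Regions at an unadjusted p under 0.05, the TGFB1 regions beyond the canonical end, the TGFB1 split, and the further regions of TGFBR2, SMAD2, SKI and SKIL were named after their values were seen. The members and gene lists were chosen with earlier results of these data known. Alternatives were the percentile in place of the fold, no centring, peaks with −log10 q-value of at least 10, summits clustered within 100 bases, lists cut to 22700 peaks, a replicate block, and leaving out each library. Python 3.11.15, numpy 2.4.6, pandas 2.3.3, scipy 1.17.1 and matplotlib 3.10.9 were used, and the scripts were tested on simulated data.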

Additional observations from a re-analysis of the deposited data

How the results depend on the processing

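Over 90 region results and their alternatives, 913 values kept their side of the threshold, 40 lost a call, 20 gained one and 7 changed sign with a call on at least 1 side. Of the 913, 68 differed in sign from the reported value without being called in either fit, 8 of them without centring. No member region was called in any KD comparison under any alternative, including leaving out each library and the replicate block, whereas the percentile called 55 regions over all genes in NB4 and 19 over both lines. Between K562 WT and HepG2 WT 8 member regions were called, against 4 with the percentile (2 higher, 2 lower) and 17 without centring, and 1 to 7 when a library was left out. The 7 sign changes that involve a call came without centring in that comparison, to 0.16 and 0.43 for the SKI intron 1 regions at 2280419 and 2302849, 0.32 for SMAD6 exon 1, 1.00 for TGFB1 intron 6, and 0.0088, 0.62 and 0.93 for the antisense TGFB1 regions at 41303974, 41305544 and 41316307. They follow from the median shift that the centring removes. Between NB4 Control and K562 Control 8 were called, and 4 to 8 when a library was left out. Lost or gained member regions numbered 3 in all, 5 with summit clusters, and 3 to 8 when a library was left out. The causes were not tested. With equal list sizes TGFBR1 fell to 0.214 sense peaks per library and TGFBR2 and SMAD6 to 1.

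Libraries with the same number were not correlated in their deviations (−0.07 in K562, −0.04, −0.03 and −0.11 in NB4), so the numbers were not taken as pairs. With the replicate block 0 member regions were called in each KD comparison, 9 between K562 WT and HepG2 WT (2 higher, 7 lower) and 9 between NB4 Control and K562 Control without NB4 Control 3 (6 higher, 3 lower). Over all regions the replicate block called 1 in K562.

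Depth could not be recovered for 3 libraries, 2 libraries per group leave few degrees of freedom, and without inputs a change of RNA level and a change of m6A per RNA cannot be told apart.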
